A study of Mus musculus with 6 samples.

Results

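The genes examined here were 39 ligands, receptors, SMADs and binding proteins of the TGF-beta superfamily, chosen by name and role and looked up in the 8 gene lists that accompany the H3K27me3 ChIP-seq of cultured mouse granulosa cells (GCs). The choice was made with earlier results of these data known. The genes made up 39 of the 21031 protein-coding genes against which they were set. H3K27me3 is a repressive trimethyl mark on histone H3. GCs came from ovaries of wild type C57BL/6J mice aged 8-9 weeks; per the labels, cells of 30 mice were divided over 6 dishes, while the methods give another number of mice. 3 control samples received no agent and 3 samples received 25 nM dihydrotestosterone (DHT), a non-aromatizable androgen, for 24 h. As GCs of many mice shared the dishes, the samples differ by culture and not by single animals.

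Ligands of this superfamily bind a pair of type II and type I serine/threonine kinase receptors at the cell surface, and the type I receptor then phosphorylates receptor-regulated SMADs. These join the common SMAD, SMAD4, and act on transcription in the nucleus, while inhibitory SMADs and SMURF ubiquitin ligases dampen the signal. In the ovary, BMP15 and GDF9 come from the oocyte, and GCs make inhibins, activins and anti-Müllerian hormone, so that the pathway carries much of the exchange between oocyte, GCs and theca.

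The gene body and promoter lists of each group state whether a gene had at least 1 H3K27me3 peak in its body or in its promoter, within 1 kb of the start site, and gives no level. There is 1 pooled peak list per group, with 16345 peaks in control and 3975 after DHT. The number of peaks with a −log10 q-value of at least 5 was 138 and 143, and the median fold enrichment over all peaks was 3.46 and 4.21. Depth is unknown, and as the samples were pooled a count carries no error between replicates. A gene outside a list had no peak that passed the q-value limit of the authors in their gene annotation, which is not a measured absence of the mark. That annotation is not named, and a gene missing from it or named otherwise in it would also be outside a list. The check of cell type by marker expression could not be made from these lists.

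In control GCs, 9 of the 39 genes were in the gene body list (23.1%, 95% Wilson interval 12.6 to 38.3%), as against 13.6% of all protein-coding genes. They were the ligands Bmp5 and Tgfb3, the receptors Acvr1c, Bmpr1b, Bmpr2, Tgfbr2 and Tgfbr3, the latent TGF-beta binding protein Ltbp1 and Smad3. After DHT, 2 genes were listed (5.13%, interval 1.42 to 16.9%), Bmp6 and Tgfbr3, as against 4.96% of all protein-coding genes. Thus 8 genes were listed in control only, where the share of all coding genes was 10.6%. Tgfbr3 alone was in both lists, where the share was 3.01%, and Bmp6 alone was in the DHT list only, where it was 1.95%. The other 29 genes were in neither. Intervals cover counting error only.

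**Figure D1:**
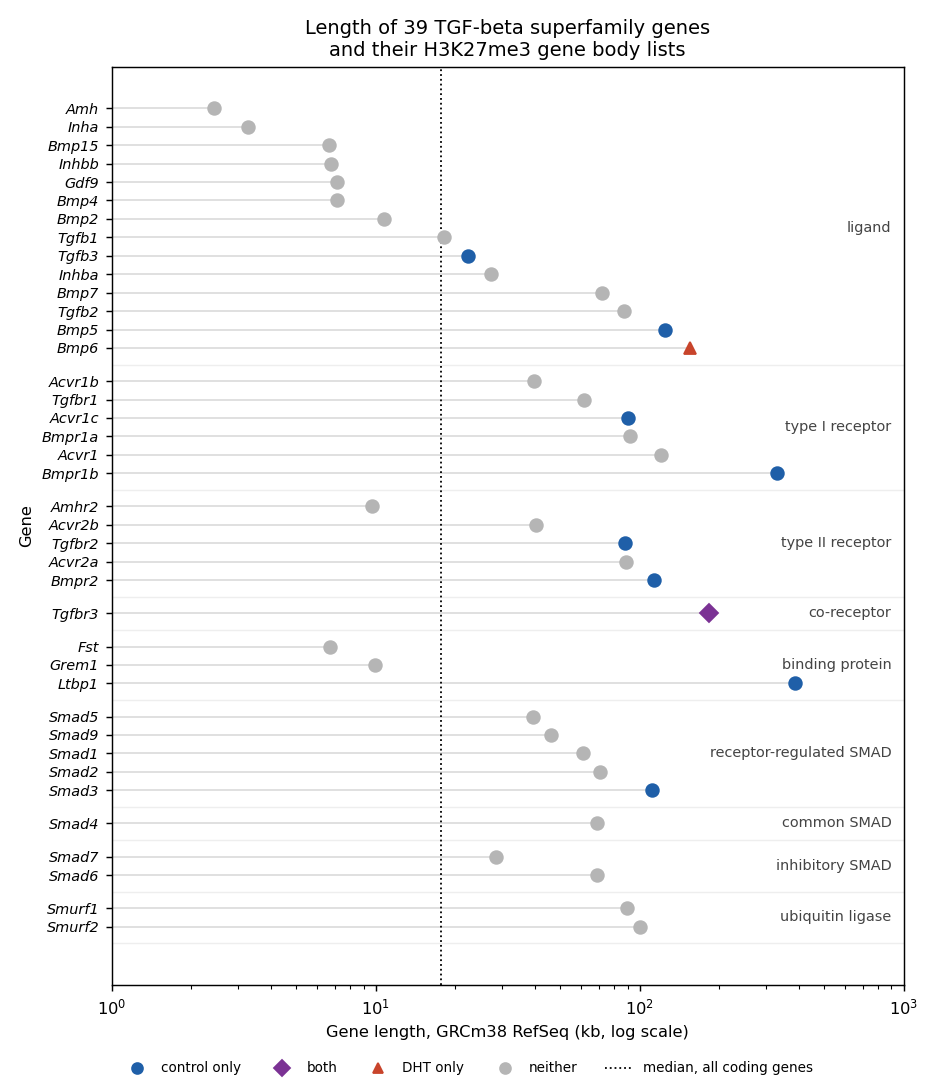
Length of each of the 39 genes on a log axis in kb, grouped by role; symbol and colour give the gene body list (control only, both, DHT only or neither) and the dotted line is the median of all protein-coding genes, 17.7 kb. Of the 10 genes in a list, 9 are longer than 75 kb, and Tgfb3 at 22.3 kb is the exception.

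A long gene offers more room for a peak, so gene length was considered first. The 39 genes were long: 29 exceeded the median of protein-coding genes, 17.7 kb, and they ranged from 2.44 kb (Amh) to 387 kb (Ltbp1). For each gene the 200 protein-coding genes nearest in length, 100 shorter and 100 longer, were taken as genes of like length. Such genes were in the control list at 24.1% on average, which amounts to 9.38 genes in a set with these lengths, beside the 9 observed. For the DHT list the share was 8.83%, or 3.45 genes, beside the 2 observed. The excess over all coding genes in control was therefore no larger than that of genes of like length. The corresponding figures were 7.44 genes beside 8 for control only, 1.95 beside 1 for both lists and 1.5 beside 1 for DHT only.

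**Figure D2:**
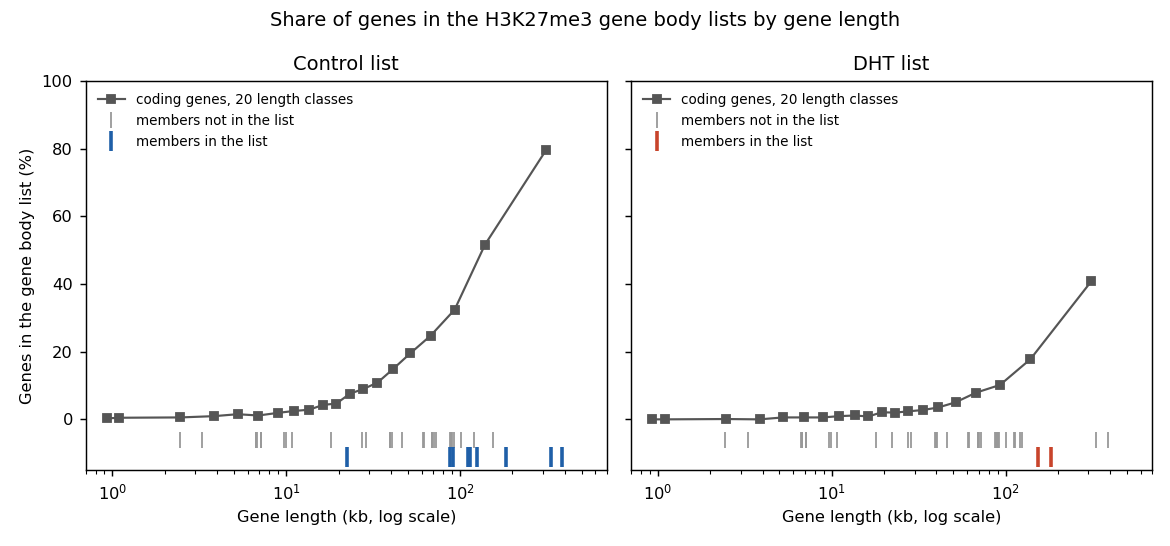
Percent of protein-coding genes listed in control (left) and after DHT (right), in 20 classes of equal size by gene length (squares, at the median length of the class in kb, log axis). Ticks below 0 mark the lengths of the 39 genes, those in the list in colour. The share rises to 79.5% in control and 40.8% after DHT in the class of the longest genes.

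The genes were also counted by length class. Of 15 genes over 75 kb, 8 were in the control list (53.3%), and of all coding genes over that length 53.2% were. Of 12 genes of 25 to 75 kb, 0 were listed in either group, while 15.2% of all coding genes of that length were in the control list and genes of like length amounted to 2.22 genes (18.5%). The Wilson interval of 0 of 12 reaches 24.2% and so holds both shares. After DHT, 4.26% of all coding genes of this length were listed. Of 12 genes under 25 kb, Tgfb3 alone was listed, in control, where 2.35% of all coding genes under 25 kb were listed, compared with 0.718% after DHT. Over 75 kb, Bmp6 and Tgfbr3 were listed after DHT, 2 of 15 genes, compared with 22.1% of all coding genes.

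Among the 14 ligands, Bmp5 (125 kb) was in the control list only. BMP5 belongs with BMP6 and BMP7 to the subgroup that signals through SMAD1, SMAD5 and SMAD9. Of coding genes of like length to Bmp5, 46% were listed in control and 18% after DHT. Bmp6, which mouse oocytes express, is 1.24 times as long (155 kb) and showed the opposite pattern. It was present in the DHT list and absent from control, where 19.5% and 58% of genes of like length were listed. Of genes of like length to Bmp6, 5% were in the DHT list only, and of those to Bmp5, 38% were in control only. Bmp7 (72.3 kb), a theca-derived ligand in the rodent ovary, was in neither. Genes of like length to Bmp7 were in the control list at 27%.

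Tgfb3 was the shortest of the 39 genes in a gene body list. It encodes 1 of the TGF-beta ligands, is 22.3 kb long and was in the control list only, where 7.5% of genes of like length were. Tgfb2, at 86.9 kb 3.90 times as long, was in neither list, although 35.5% of genes of its length were in control. Tgfb1 (18.1 kb) was not listed either. Both coding genes that flank Tgfb3, Ttll5 (229 kb) and Ift43 (79.9 kb), were also in the control list only. Of all coding genes over 75 kb, 53.2% were in the control list.

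The short ligand genes with the best known roles in the follicle were in no gene body or promoter list. These were Inha (3.29 kb), the alpha subunit of inhibin, Inhbb (6.79 kb) and Inhba (27.4 kb), which encode the beta subunits of activins and inhibins, Amh (2.44 kb), Gdf9 (7.13 kb) and Bmp15 (6.67 kb). For the 5 of them other than Inhba, between 0.5% and 1.5% of genes of like length were in the control list, so that absence was the usual state at these lengths. For Inhba it was 11%. B230303A05Rik, an annotated pseudogene of 210 kb that shares part of its span with Inhba, was in both lists while Inhba was in neither. Bmp2 (10.7 kb) was also unlisted.

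The other 4 lists hold genes that the authors called up- or downregulated by DHT, and Bmp4 was the only one of the 39 genes in any of them. It encodes a BMP ligand that acts on GCs, and it stood on the list of 66 upregulated, enhancer-linked genes. This list held 0.281% of protein-coding genes. The authors linked such genes by public chromatin contacts to distal regions whose H3K27me3 level ran against expression across the 6 samples (correlation below -0.4). A negative relation is therefore part of how the list was made. Expression came from RNA-seq of separately pooled GCs, and not from the ChIP-seq samples described here. Bmp4 (7.15 kb) was in neither gene body list and neither promoter list, and 1% of genes of like length were in the control list. None of the 39 genes was among the 33 downregulated enhancer-linked genes, the 22 upregulated genes with a gene body peak or the 15 downregulated genes with a gene body peak. Those lists held 0.147%, 0.0999% and 0.0666% of coding genes, so that less than 1 gene would be found among 39 at the overall rate.

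Receptors were the group with the most listed genes. Of 12 receptor genes, 5 were listed in control and 1 after DHT, where genes of like length amounted to 4.17 and 1.49 genes. Of 6 type I receptors 2 were listed in control, and of 5 type II receptors 2, where genes of like length amounted to 2.27 and 1.265 genes. Of the activin type I receptors, Acvr1c (90.4 kb, 2.28 times as long as Acvr1b) was in the control list only, and Acvr1b (39.6 kb) was in neither. The shares of genes of like length in control were 32.5% and 13.5%. Acvr1 (120 kb), which serves BMPs and anti-Müllerian hormone, lies next to Acvr1c on chromosome 2 and is longer, yet was in neither list, with 45.5% of genes of like length in control. Upp2, which shares part of its span with Acvr1, was in both lists. Gm13544, an annotated long non-coding RNA that shares part of the span of Acvr1c, was in the control list only as well, and a peak shared by both would count for each.

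Bmpr1b and Bmpr1a encode type I receptors for BMPs, and the former is needed for normal fertility in female mice. Bmpr1b (332 kb) was in the control list only. At this length 79.5% of genes were listed in control and 39% after DHT, so its presence in control was the common state. Bmpr1a (92.3 kb) was in neither, with 32.5% of genes of like length in control. Tgfbr1 (61.7 kb), the type I receptor for TGF-beta, was likewise in neither.

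Among type II receptors, Bmpr2 (114 kb), which binds BMP15 and GDF9, and Tgfbr2 (87.7 kb), which binds TGF-beta, were in the control list only. Genes of like length were in that list at 39.5% and 36.5%. Acvr2a (89.2 kb) and Acvr2b (40.6 kb), the activin receptors, and Amhr2 (9.64 kb), the receptor for anti-Müllerian hormone, were in neither list. Tgfbr2 and Acvr2a differ little in length and had different outcomes, where 36.5% and 35% of genes of like length were in control. For Acvr2b and Amhr2 these shares were 14% and 1.5%. Orc4, a coding gene that shares part of its span with Acvr2a in GRCm38, was in the control list only. Tgfbr3 (183 kb) encodes betaglycan, a co-receptor that presents TGF-beta and strengthens the binding of inhibin. It was in both lists, as were 16% of genes of its length, while 63.5% were in control and 20% in DHT.

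Of 8 SMAD genes, Smad3 (111 kb) was in the control list only and the other 7 were in neither, where genes of like length amounted to 1.69 genes in control and 0.635 after DHT. SMAD3 carries TGF-beta and activin signals together with SMAD2. Of genes of like length to Smad3, 36% were listed in control and 14.5% after DHT. Smad6 (69.0 kb), an inhibitory SMAD of BMP signalling, is the next coding gene to Smad3 on chromosome 9 and was in neither list. Smad2 (70.7 kb), Smad4 (69.0 kb) and Smad7 (28.6 kb) were unlisted, and so were the BMP-type Smad1 (61.0 kb), Smad5 (39.4 kb) and Smad9 (46.2 kb). For these 7 genes the share of genes of like length in control lay between 7.5% and 26%. The ubiquitin ligases Smurf1 (89.4 kb) and Smurf2 (100.7 kb) were in neither list, with 34% and 32.5%.

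**Figure D3:**
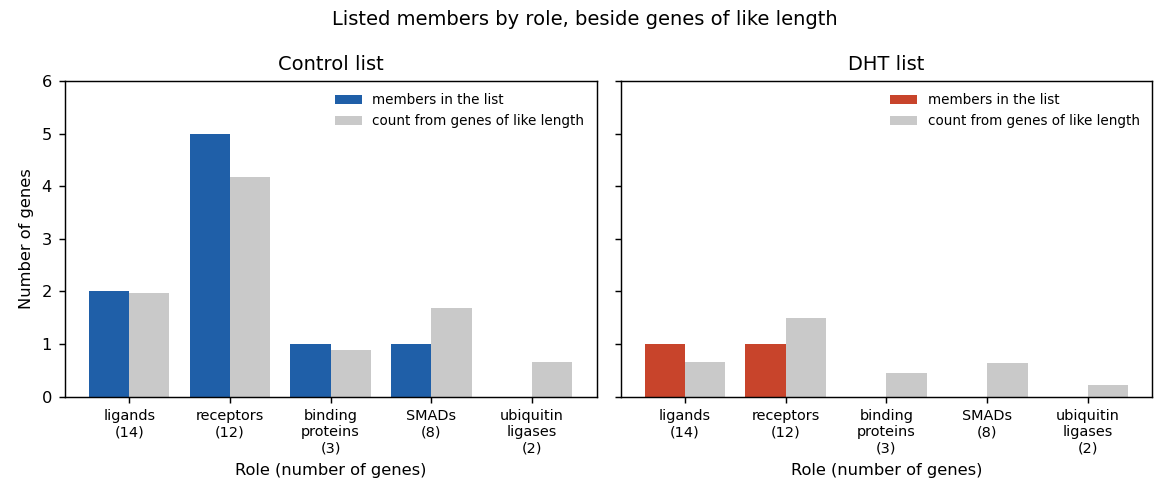
Number of genes listed in control and after DHT by role (coloured bars), beside the number that genes of like length would give (grey bars); the size of each group is in brackets. Receptors stand at 5 beside 4.17 in control, and SMADs at 1 beside 1.69.

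Of the binding proteins, Ltbp1 (387 kb), which holds latent TGF-beta in the matrix, was in the control list only. It was the longest of the 39 genes, and 86% of genes of its length were listed in control and 43% after DHT. Fst (6.73 kb), which encodes the activin-binding follistatin, and Grem1 (9.97 kb), a BMP antagonist, were in neither.

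Of the 9 genes listed in control, 1 was also in the DHT list (11.1%). Of all genes in the control list, 21.7% were. Among control-listed coding genes of like length to each of the 9, the share that was also in the DHT list ranged from 0% to 45.3% and amounted to 1.96 genes in all. The fall from 9 to 2 genes went with a DHT gene body list that held 36.5% as many entries as the control list. Fewer cells with the mark, less of the mark per cell and fewer peaks detected at an unknown depth cannot be told apart in these lists.

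The gene body of the listed genes was mostly intron. In the longest curated transcript of each, introns made up 84.8% to 98.4% of the span in the 10 listed genes (median 96%) and 30.2% to 97.3% in the other 29 (median 87.5%). The largest intron had a median of 51.3 kb and 20.3 kb in these sets. The listed genes were also longer, with a median of 119 kb beside 39.6 kb, and introns were not compared with those of genes of like length. In Bmp6 a single intron of 123 kb took up 79.6% of the gene and in Smad3 one of 89.5 kb took up 80.5%. Smad6, unlisted, has a like build, with an intron of 53.5 kb at 77.5%. Where in a gene a peak lay was not analysed, since the peaks are in mm9 and the gene models in GRCm38.

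Genes beside the listed ones were also looked up. Of 20 flanking coding genes, the nearest on each side without overlap, 11 were in the control list (55%). Of the 58 flanking genes of the 29 unlisted members, 17 were (29.3%). The former were longer, with a median of 76.1 kb beside 29.2 kb, and the part of this difference in the result was not tested. Bmpr2, Smad3 and Bmp6 had no listed flank. Tgfbr2 lay between Gadl1 and Rbms3, both in both lists, and was itself in control only.

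No promoter of the 39 genes was in the control or the DHT promoter list. These lists held 0.637% and 0.195% of protein-coding genes, so that less than 1 of 39 would be found at the overall rate. Promoter sequence was then described from RefSeq windows of GRCm38.p6 that span 250 bases before and 50 after the start. Where a gene had windows at several starts, only the one farthest upstream on its strand was used. A window was matched for 29 of the 39 genes. Amh, Bmp2, Bmp7, Fst, Gdf9, Smad2, Smad4, Smad7, Tgfb3 and Tgfbr3 were not matched. Polycomb targets in other cells are often CpG-rich promoters, which is why CpG content is given. Observed over expected CpG had a median of 0.753 in the 29 windows, compared with 0.597 over 16853 coding promoters, and exceeded 0.6 in 21 of 29 (72.4%) compared with 49.8%. In the control gene body list the median was 0.704 and 60.4% exceeded 0.6. In the DHT gene body list these were 0.648 and 55.4%. Genes were not matched for length in these comparisons. In the control promoter list the median was 0.407 over 107 matched genes, and in the DHT promoter list 0.386 over 30.

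The windows of 6 genes are shown to let these promoters be read beside their gene body calls, with every CG in capitals. Bmp5 (control only) has 4 CG pairs, and Bmp6 (DHT only), its close relative, has 27. Acvr1c (control only) has 39 and Acvr1b (neither) 51. Smad3 (control only) has 25 and Bmp4 (enhancer-linked) 12. All are GRCm38.p6 and read 5′ to 3′ on the strand of the gene:
Bmp5 promoter, chr9:75775115-75775414, plus strand: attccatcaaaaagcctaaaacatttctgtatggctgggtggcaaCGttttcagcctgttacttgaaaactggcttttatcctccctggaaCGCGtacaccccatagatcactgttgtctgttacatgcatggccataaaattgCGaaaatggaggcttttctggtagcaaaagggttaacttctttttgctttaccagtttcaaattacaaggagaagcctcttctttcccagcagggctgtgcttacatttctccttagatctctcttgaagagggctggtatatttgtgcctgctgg
Bmp6 promoter, chr13:38345466-38345765, plus strand: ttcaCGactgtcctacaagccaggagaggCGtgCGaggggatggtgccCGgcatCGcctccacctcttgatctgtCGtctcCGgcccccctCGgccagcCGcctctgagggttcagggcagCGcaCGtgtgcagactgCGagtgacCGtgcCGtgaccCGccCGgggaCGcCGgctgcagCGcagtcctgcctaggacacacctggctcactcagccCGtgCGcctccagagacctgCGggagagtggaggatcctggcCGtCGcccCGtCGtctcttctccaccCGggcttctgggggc
Acvr1c promoter, chr2:58357709-58358008, minus strand: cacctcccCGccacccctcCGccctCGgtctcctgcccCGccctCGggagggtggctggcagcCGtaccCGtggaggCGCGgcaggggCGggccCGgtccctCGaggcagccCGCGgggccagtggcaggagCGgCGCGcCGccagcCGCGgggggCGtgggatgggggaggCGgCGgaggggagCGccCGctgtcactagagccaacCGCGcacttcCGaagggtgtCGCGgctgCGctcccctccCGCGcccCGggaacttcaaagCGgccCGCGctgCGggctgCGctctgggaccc
Acvr1b promoter, chr15:101173822-101174121, plus strand: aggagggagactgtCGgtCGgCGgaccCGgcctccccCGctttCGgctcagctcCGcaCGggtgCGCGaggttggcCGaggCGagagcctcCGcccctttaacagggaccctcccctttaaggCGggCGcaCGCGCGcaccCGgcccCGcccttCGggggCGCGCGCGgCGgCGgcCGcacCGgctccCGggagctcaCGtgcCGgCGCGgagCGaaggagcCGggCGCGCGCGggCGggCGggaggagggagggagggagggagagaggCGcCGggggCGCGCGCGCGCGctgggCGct
Smad3 promoter, chr9:63757945-63758244, minus strand: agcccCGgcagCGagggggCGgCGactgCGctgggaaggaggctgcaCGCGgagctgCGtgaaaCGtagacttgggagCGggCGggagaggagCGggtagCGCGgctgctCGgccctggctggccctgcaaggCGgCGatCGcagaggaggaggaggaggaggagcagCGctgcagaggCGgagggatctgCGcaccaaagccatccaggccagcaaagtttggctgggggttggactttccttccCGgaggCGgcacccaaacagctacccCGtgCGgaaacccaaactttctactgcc
Bmp4 promoter, chr14:46390620-46390919, minus strand: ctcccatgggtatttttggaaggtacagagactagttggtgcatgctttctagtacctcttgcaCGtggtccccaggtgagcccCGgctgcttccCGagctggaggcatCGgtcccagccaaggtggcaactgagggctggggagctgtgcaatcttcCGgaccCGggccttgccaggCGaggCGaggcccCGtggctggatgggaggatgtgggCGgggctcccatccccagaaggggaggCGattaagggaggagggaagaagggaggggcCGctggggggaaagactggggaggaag

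Listed genes ranged widely in promoter CpG. Bmp5 and Bmpr1b, at an observed over expected CpG of 0.284 and 0.286, were low, and so were the unlisted Amhr2 and Inha at 0.219 and 0.222. Acvr1c at 0.833 and Bmpr2 at 0.885 were rich. Of 8 listed genes with a window 6 exceeded 0.6, and of 21 unlisted genes 15 did. Acvr2a and Smurf1 had the highest values, 1.14 and 1.13, and were in no list.

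**Figure D4:**
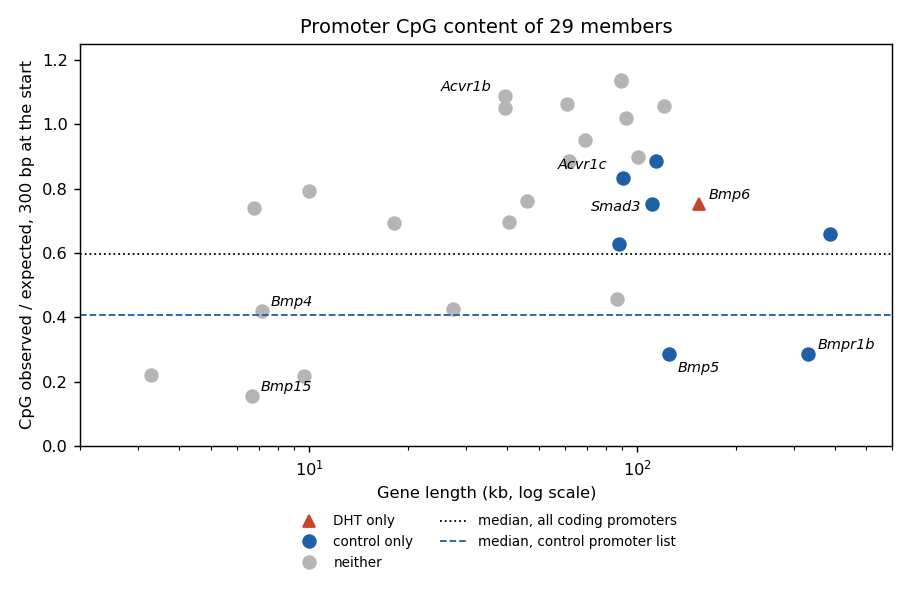
Observed over expected CpG in the 300 bp promoter window against gene length (kb, log axis) for the 29 genes with a window; symbol and colour give the gene body list. The dotted line is the median of all coding promoters (0.597) and the dashed line that of the control promoter list (0.407). Bmp5 and Bmpr1b sit at 0.284 and 0.286 while the other 6 listed genes lie above 0.6.

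A further 71 genes of the pathway, other ligands, antagonists, matrix proteins, co-factors and targets, were looked up in the same way. Of these, 15 were listed in control (21.1%) and 3 after DHT (4.23%), where genes of like length amounted to 10.9 and 4.19 genes. Of 27 extracellular regulators 8 were listed in control, where genes of like length amounted to 5.91 genes. They included the BMP modulator Bmper (262 kb), the follistatin-like Fstl1, Fstl4 and Fstl5, the fibrillins Fbn1 and Fbn2, and decorin (Dcn). All 8 were in control only, where genes of like length amounted to 4.045 genes and the share of all coding genes was 10.6%. In both lists, genes of like length amounted to 1.865 genes, beside 0 observed. The others in control only were Bmp3, the BMP co-receptor Neo1, Map3k7 (the kinase TAK1), the SMAD repressor Skil and Runx2. Lefty2, an inhibitor of Nodal signalling, and Nedd4l, a ubiquitin ligase for SMADs, were in both lists. Zfyve9, the SMAD anchor SARA, was in the DHT list only. Lefty2 is 6.00 kb long, and 1% of genes of like length were listed in control and 0% after DHT. Gdf5, a BMP-type ligand, was in the control promoter list and was the only one of these 71 genes, or of the 39, in a promoter list.

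Of these further genes, 5 of 17 between 25 and 75 kb were in the control list, among them Bmp3 (29.6 kb), Skil (27.9 kb) and Dcn (38.7 kb), where genes of like length amounted to 2.23 genes. In the main set 0 of 12 genes of that length were. The lists were drawn up with earlier results known, and no test of this difference was made.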

How the data were processed

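H3K27me3 ChIP-seq libraries of 3 control and 3 DHT samples were pooled by the authors to 1 peak list per group; how was not stated. Per the submitters' processing notes and the methods, reads were mapped to mm9 with Bowtie2 2.3.4, uniquely mapped reads were kept, and broad peaks were called with MACS2 2.1.1 under a q-value limit of 0.05. How duplicate reads were treated is unsure: the methods describe their removal, but names in the deposited peak lists carry a setting that keeps some. The deposited peak lists hold a score, a fold enrichment (a ratio over local background) and −log10 q-values; here they were only counted and summarised. The deposited gene lists hold symbols without values.

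Groups followed the labelled agent. Symbols were matched to RefSeq GRCm38.p6, older symbols mapped to current ones where unambiguous: 3134 of 3144 control and 1142 of 1146 DHT gene body entries matched. This build gave names, lengths, neighbours and promoter windows, and no peak was compared with it. The background was 21031 protein-coding genes with a curated transcript. The step for genes of like length was checked on simulated data. Python 3.11.15, numpy 2.4.6, scipy 1.17.1, pandas 2.3.3 and matplotlib 3.10.9 were used. Shares have 95% Wilson intervals. No test between groups was possible. All 39 genes may be named, and other pathway genes where listed; members and lists were chosen with earlier results of these data known. A planned comparison of protein sequences was not run. Some items looked up are not reported here.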

Additional observations from a re-analysis of the deposited data

How the results depend on the processing

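No paired analysis was possible because each group has 1 pooled list with no value per replicate, and leaving out a replicate was not run for the same reason. Of 14 alternatives, 10 stayed within the set range of the reported value. Symbols as deposited also gave 9 and 2 genes. The 18 genes that share their span with another annotated gene were then left out. Of the other 21 genes, 4 were listed in control and 0 after DHT, where genes of like length amounted to 3.90 and 1.56 genes. Both genes of the DHT list, Bmp6 and Tgfbr3, were among the 18. With all biotypes as background, genes of like length were listed at 21.2% in control and 7.82% after DHT. With 50 or 200 genes on each side, with 20 classes of length, or with coding genes that overlap no other, the shares lay between 23.8% and 24.4% and between 8.6% and 8.97%. Unknown depth and pooling limit every count.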

Other observations

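The 9 control-listed genes lay on 7 chromosomes. Chromosome 9 held 3 of them, Bmp5, Smad3 and Tgfbr2, out of 5 genes of the set, while 12.7% of all coding genes of that chromosome were in the control list and genes of like length to the 5 amounted to 1.56 genes. Chromosome 2 held 6 genes, of which Acvr1c was listed, with 13.9% of its coding genes in the list and 1.44 genes from those of like length. The 3 genes on chromosome 18, Smad2, Smad4 and Smad7, were unlisted, with 27.6% of its coding genes in the control list and 0.565 genes from those of like length. Chromosomes were looked at after the values were seen, and no test was made.

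Several unlisted genes of the set had listed genes beside them, while of all 58 flanking genes of unlisted members 17 were in the control list (29.3%). The genes named here were picked for their listed flanks, and the lengths of these flanks were not taken into account. Acvr2a lay between Zeb2 and Mbd5, Smad2 between Zbtb7c and Skor2, and Inhbb between Gli2 and Ralb, and these 6 flanking genes were all in the control list only. Grem1 lay between Fmn1, in both lists, and Scg5, in control only. Smad7 had Dym, in control only, on one side and Ctif, in the DHT list only, on the other.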
